A study of Sus scrofa with 18 samples.

Results

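The F-box, TRIM and ubiquitin-conjugating enzyme genes were examined in the gastrocnemius, a calf muscle, of growing pigs. A probe set of the array was taken when its annotation held exactly 1 gene name and that name began with FBXO, FBXL, FBXW, TRIM or UBE2. FBXO32, FBXO30, FBXO40, FBXO21, TRIM63 and UBE2B, which are linked to muscle atrophy, were left out by name. This gave 107 probe sets for 97 gene names, of 12365 distinct gene names on the array. The F-box genes made up 47 of these probe sets (FBXO 26, FBXL 16, FBXW 5), the TRIM genes 38 and the ubiquitin-conjugating enzymes 22.

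The pigs were male crossbreds that entered the trial at 5 weeks of age and were fed for 4 weeks before slaughter on day 29. Group CON received no insect meal, group IM5 received 5% and group IM10 received 10% insect meal of the mealworm Tenebrio molitor. The meal took the place of 0, 50 and 100% of the soybean extraction meal. The diets with insect meal also held added cellulose, more crude fibre and less rapeseed and safflower oil. Effects of the meal and of these components cannot be told apart here. Each group is represented by 6 pigs with 1 array each, picked at random from a larger group. Pigs shared pens, but which pigs did so is not stated in the labels, and the pig was taken as the unit in all tests. The deposited values are log2 expression values from RMA, which corrects for background, normalises between arrays and summarises the probes of each transcript. A difference of 1 on this scale is a doubling, levels are compared only between pigs within a probe set, and fewer cells of a type cannot be told apart from less RNA per cell.

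Ubiquitin is attached to proteins in a relay in which an activating enzyme passes it to a conjugating enzyme (E2, the UBE2 genes), and a ligase (E3) brings the E2 to its target. Many F-box proteins are the part of a cullin ligase (the SCF complex) that recognises the target, with leucine-rich repeats in the FBXL, WD repeats in the FBXW and other domains in the FBXO proteins. Most TRIM proteins are single-chain ligases with a RING domain, several of which act in antiviral defence and a few in the sarcomere or the membrane of muscle fibres. In skeletal muscle these proteins are part of the machinery that breaks down and renews the contractile apparatus.

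The arrays were alike as a whole, with correlations between any pair of 0.977 to 0.991 and medians of 4.91 to 5.00. Markers of skeletal muscle fibres, measured for 8 of 16 listed genes in 9 probe sets, averaged 11.92 to 12.16 in every pig and all lay above the 99.3rd percentile of the array. The array of IM10 replicate 2 stood apart in the macrophage and proliferation lists. Macrophage and monocyte markers, measured for 17 of 22 listed genes in 18 probe sets, averaged 7.27 in that pig, against 5.50 to 6.09 in the rest of group IM10, 5.43 to 6.13 in group CON and 5.49 to 6.08 in group IM5. Cell proliferation genes, measured for 12 of 30 listed genes in 13 probe sets, averaged 5.33 in that pig, against at most 4.99 in any other. Lymphocyte markers (10 of 12 listed genes, 11 probe sets) averaged 4.94 in that pig, against at most 4.58 in the rest of group IM10, 4.75 in group CON and 4.48 in group IM5. Only 3 of the 11 lymphocyte probe sets were highest in that pig, against 15 of 18 for macrophage markers and 12 of 13 for proliferation genes. IM10 replicate 1 stood apart in the interferon-stimulated genes, which averaged 6.27 in that pig. They averaged 5.00 to 5.22 in the rest of group IM10 and at most 5.85 in the other groups. Some lists also shifted between groups by the thresholds given below. Between groups IM10 and IM5, 3 of 11 lymphocyte, 2 of 8 endothelial and 1 of 13 proliferation probe sets rose, against 1.43% of all. Means were higher in all 13 of the latter. Between groups IM10 and CON, 1 of 18 macrophage probe sets rose, against 1.12% of all, and 17 had a higher mean. The muscle fibre, adipocyte and interferon lists held none in any comparison. Whether this bears on the members was not tested.

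Few members differed between the groups, and no difference was large. Following the thresholds of the study, a rise or a fall means a fold change of more than 1.2 (0.26 on the log2 scale) together with an unadjusted P under 0.05 in limma. In group IM10 compared with group CON, TRIM50 rose and FBXW8 fell, so that 1 of 107 probe sets went in each direction, against 1.12% higher and 1.17% lower among all 25388 probe sets. In group IM5 compared with group CON, TRIM31 and TRIM69 rose and no member fell, against 1.09% higher and 1.01% lower among all. In group IM10 compared with group IM5, TRIM69 fell and no member rose, against 1.32% lower and 1.43% higher among all. The 3 comparisons share pigs, so TRIM69 enters 2 of them with the same values of group IM5.

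An unadjusted P under 0.05 in limma was reached by 2 members in group IM10 against group CON, 6 in group IM5 against group CON and 5 in group IM10 against group IM5. The shares among all probe sets were 4.38%, 3.7% and 5.22%. The per-probe-set test of the study's methods gave 6, 4 and 6 members at this threshold, against 4.53%, 3.81% and 5.07% of all probe sets. After Benjamini-Hochberg adjustment over all probe sets, 0 members passed 0.05 in any comparison by limma or by the methods' test, against 0.00394%, 0.0% and 0.0% of all probe sets by limma and 0.0% in each comparison by the methods' test. The lowest adjusted p of a member in limma was 0.991, 0.998 and 0.931 in the same order. No member separated 2 groups completely, since the values of the groups overlapped or touched for each of the 107 probe sets in each comparison, and among all probe sets 0.213%, 0.15% and 0.177% separated the groups. At these shares, 0 of 107 is near the background.

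**Figure D1:**
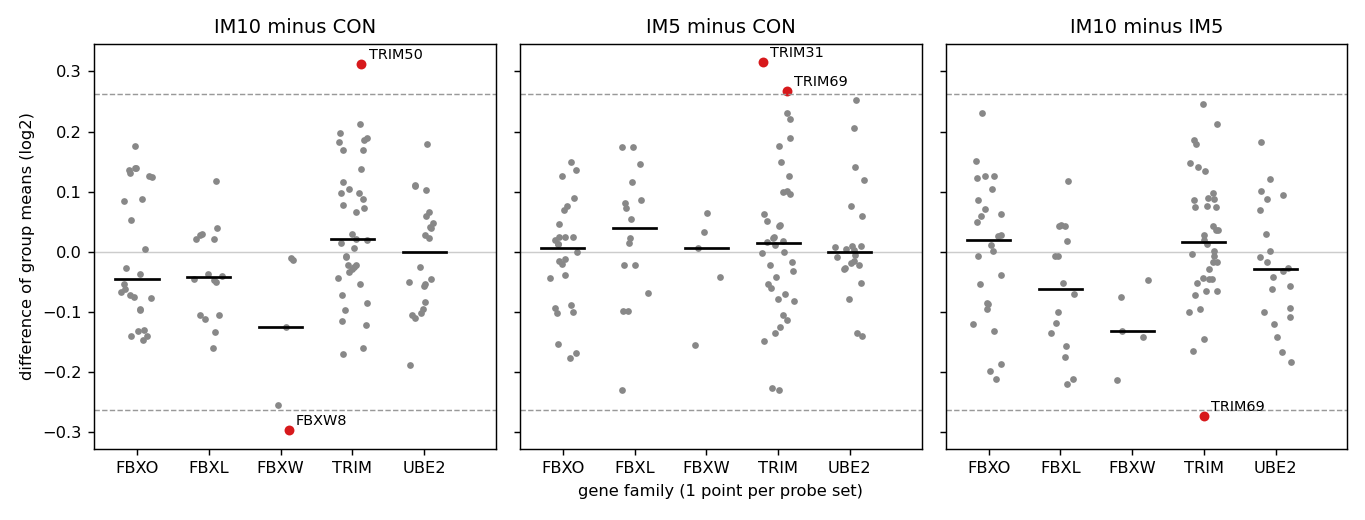
Difference of group means (log2, vertical axis) for each of the 107 probe sets by gene family, in the 3 comparisons. Black bars are family medians, dashed lines mark a fold change of 1.2 in either direction, and red points are the members that also had an unadjusted P under 0.05 in limma. The points lie between -0.30 and 0.32, and the 5 FBXW points lie below 0 in both comparisons of group IM10, which share its pigs.

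The size of the differences can be bounded. The 95% confidence interval of the difference stayed within a fold change of 1.5 in either direction for 105 of 107 members in group IM10 against group CON, 106 in group IM5 against group CON and 107 in group IM10 against group IM5. Among all probe sets these shares were 93.7%, 94.3% and 93.5%, against 98.1%, 99.1% and 100.0% of the members. The interval stayed within a fold change of 1.2 for only 32, 45 and 33 members, so changes of that size could not be bounded for most of them. The median difference of the members was -0.01, 0.01 and -0.01 on the log2 scale, and the median over all probe sets was 0.00 in each comparison. In absolute size the median difference was 0.085, 0.068 and 0.085 for the members and 0.078, 0.070 and 0.082 for all probe sets.

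Among the F-box genes, FBXW8 is the substrate-binding subunit of a ligase built on the cullin CUL7, which in other species has been shown to target the insulin receptor substrate IRS1. FBXW8 ranged from 5.52 to 5.89 in group CON with a median of 5.61. Its values ran from 5.03 to 5.83 in group IM5 (median 5.52) and from 4.99 to 5.83 in group IM10 (median 5.33). In group IM10, 5 of 6 pigs lay below the lowest pig of group CON, and the remaining pig lay within its range. The means of groups CON, IM5 and IM10 were 5.64 ± 0.13 (SD, n = 6), 5.49 ± 0.34 and 5.35 ± 0.29. The difference between groups IM10 and CON was -0.30 (standard error 0.14, limma adjusted p = 0.991), which is a 1.23-fold change. FBXW8 is also among the transcripts that the study lists for these same arrays, so its fall is not a separate observation. The fall was lost in 13 of 25 alternatives, namely with median centring, with array weights, and without any single one of CON replicates 1, 2, 3, 5 and 6, IM5 replicate 5 and IM10 replicates 2 to 6, while the difference stayed between -0.39 and -0.23 in all 25.

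The other FBXW members lay on the same side in group IM10, with values that did not pass the thresholds. For all 5 FBXW probe sets the mean of group IM10 was below that of group CON (median difference -0.13) and below that of group IM5 (median difference -0.13), while for 3 of 5 the mean of group IM5 was above that of group CON. FBXW5, which works with the CUL4 ligase, ranged from 6.70 to 7.26 in group CON, from 6.59 to 7.24 in group IM5 and from 6.20 to 7.05 in group IM10. Its difference between groups IM10 and CON was -0.26 (standard error 0.13, limma adjusted p = 0.991), and it passed the thresholds without CON replicate 6, at -0.30, or without IM10 replicate 1, at -0.33. The lowest value of FBXW5 was that of IM10 replicate 2, and without this pig the difference was -0.16. FBXW2 differed by -0.13 (standard error 0.075) from both other groups, and FBXW4 and FBXW9 differed by -0.01 each from group CON.

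The FBXO genes lay on both sides of no difference, and none was called. In group IM10 compared with group CON, 11 of 26 probe sets were higher and 15 lower, with differences between -0.15 and 0.18. FBXO4, which recognises the telomere protein TRF1 in human cells, had the lowest P of the family in any comparison. It ranged from 3.94 to 4.34 in group CON, from 3.93 to 4.11 in group IM5 and from 4.11 to 4.61 in group IM10. Groups IM5 and IM10 met at the single value 4.11, and 5 of 6 pigs of group IM10 lay above every pig of group IM5. The difference between groups IM10 and IM5 was 0.23 (standard error 0.089, limma adjusted p = 0.931), which is 1.17-fold and below the threshold on fold change. FBXO7, which takes part in the removal of damaged mitochondria, had means of 6.03, 5.92 and 5.89 in groups CON, IM5 and IM10. FBXO42, which binds the tumour suppressor p53 in human cells, had the lowest P of the family between groups IM10 and CON, with a difference of -0.15 (standard error 0.095). FBXO10 had the lowest P of the family between groups IM5 and CON, at -0.18 (standard error 0.11), and was among the dimmest 30% of probe sets.

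Of the 16 FBXL probe sets, 6 had a higher and 10 a lower mean when group IM10 was set against group CON, and no member rose or fell in any comparison. FBXL18 had a difference of -0.23 (standard error 0.10) between groups IM5 and CON, with values of 3.99 to 4.56 in group CON and 3.76 to 4.26 in group IM5. FBXL12 ranged from 4.93 to 5.26 in group IM5 and from 4.78 to 4.99 in group IM10, a difference of -0.21 (standard error 0.086). FBXL17, which removes wrongly paired BTB-domain proteins, differed by -0.22 (standard error 0.095) between groups IM10 and IM5 in 1 of its probe sets and by -0.10 (standard error 0.10) in the other. The limma adjusted p of these differences was 0.998 for FBXL18 and 0.931 for FBXL12 and the first FBXL17 probe set.

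FBXL genes with a known part in mitochondria, iron or the sarcomere showed no called difference. FBXL4, a protein of the mitochondrial outer membrane whose loss depletes mitochondrial DNA in humans, varied most between pigs of all members, with a pooled SD within groups of 0.34. Its values ran from 6.47 to 7.54 in group CON, from 6.71 to 7.21 in group IM5 and from 6.36 to 7.42 in group IM10, so that the groups lay over each other. The difference between groups IM10 and CON was 0.03, with a 95% interval from -0.34 to 0.40. FBXL5, the iron sensor that directs the breakdown of iron regulatory protein, had means of 7.69, 7.62 and 7.64, and the interval of its difference between groups IM10 and CON ran from -0.25 to 0.15. FBXL22, a sarcomeric F-box protein of heart and skeletal muscle, had means of 5.78, 5.79 and 5.62, and its difference of -0.16 between groups IM10 and CON was within an interval from -0.44 to 0.12.

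The TRIM genes, with 38 of the 107 probe sets, held 3 of the 4 members that were called in any comparison. An excess of calls in this family over the other families was not tested. TRIM50, a ligase known from the acid-secreting cells of the stomach, ranged from 3.01 to 4.17 in group CON (median 3.80), from 3.54 to 4.18 in group IM5 (median 3.97) and from 3.83 to 4.20 in group IM10 (median 4.05). The groups overlapped in part, since 3.01, 3.68 and 3.75 of group CON lay below every pig of group IM10. All values of group IM10 but the highest lay within the range of group CON. The lowest value, 3.01 in CON replicate 1, stood far below the next value of that group, 3.68. It was not among the pigs flagged below as far from the rest of their group. The means were 3.72 ± 0.39 (SD, n = 6), 3.89 ± 0.24 and 4.03 ± 0.16. The rise in group IM10 over group CON was 0.31 (standard error 0.15, limma adjusted p = 0.991). Without CON replicate 1 it was 0.17 and no longer passed the thresholds, and it was lost in 13 of 24 alternatives, among them the test of the methods, array weights, and the fits without any single one of CON replicates 1, 2 and 5, IM5 replicates 2, 5 and 6 and IM10 replicates 1, 2, 4 and 5. TRIM50 was among the dimmest 30% of probe sets.

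TRIM31, a ligase of innate immunity that acts on the antiviral adaptor MAVS in mice, names 2 probe sets that carry different gene IDs. The ID of the called one is not in the RefSeq table used here, so its name rests on the annotation of the array alone. In this probe set, values ran from 4.31 to 4.86 in group CON (median 4.52), from 4.32 to 5.19 in group IM5 (median 4.89) and from 4.53 to 5.17 in group IM10 (median 4.68). Of the pigs of group IM5, 3 lay above every pig of group CON and 1 lay near the bottom of its range. The rise in group IM5 over group CON was 0.32 (standard error 0.14, limma adjusted p = 0.998). The other probe set, whose ID is that of TRIM31 in RefSeq, differed by 0.04 (standard error 0.11) in the same comparison. The mean of both gave 0.18, which did not pass the thresholds. The rise was also lost in the test of the methods and without any single one of CON replicates 1, 2, 4 and 5. It was lost too without IM5 replicates 2, 3 or 4, so in 9 of 25 alternatives. The fits without a pig of group IM10 could not move this difference, only its P.

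TRIM69, a RING ligase, was among the dimmest probe sets and differed in group IM5 from both other groups. It ranged from 2.12 to 2.78 in group CON (median 2.61), from 2.58 to 3.16 in group IM5 (median 2.73) and from 2.40 to 2.72 in group IM10 (median 2.45). In group IM10, 4 of 6 pigs lay below every pig of group IM5. The rise in group IM5 over group CON was 0.27 (standard error 0.12, limma adjusted p = 0.998), and group IM10 was lower than group IM5 by 0.27 (difference -0.27, standard error 0.12, limma adjusted p = 0.931). Groups IM10 and CON differed by -0.01. Without IM5 replicate 4, the pig with the value 3.16, both calls were lost, at 0.19 and -0.20. The rise was lost in 8 of 24 alternatives, which besides array weights and the test of the methods left out CON replicates 1, 3 and 4 and IM5 replicates 3, 4 and 6 singly. The fall was lost in 7, with array weights and singly without IM5 replicates 4 and 6 and IM10 replicates 1, 2, 4 and 6. Leaving out a pig of the third group could not move either difference, only its P.

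**Figure D2:**
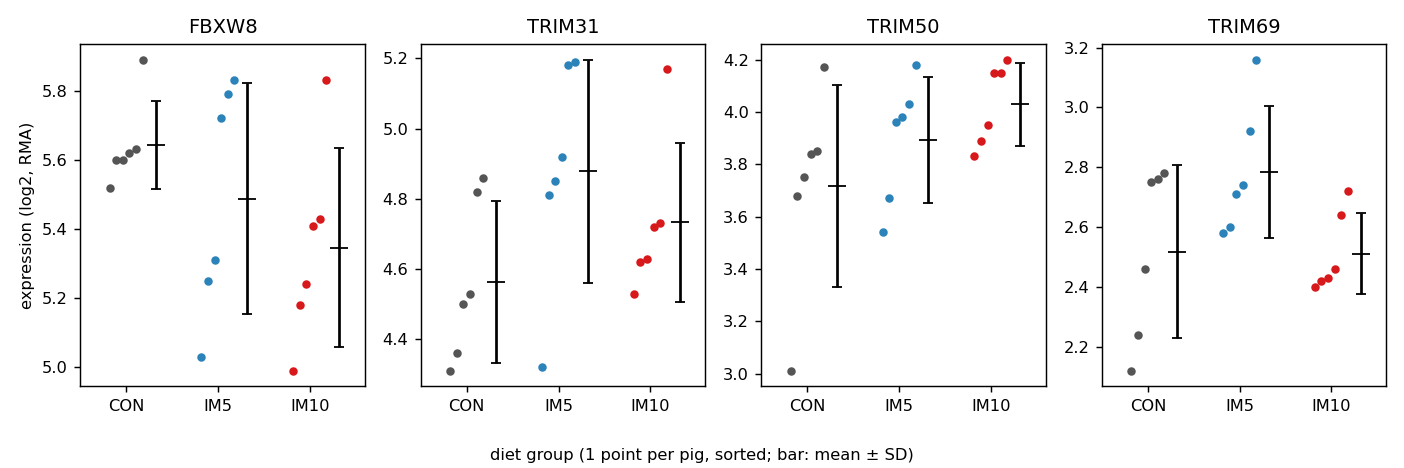
Log2 expression of the 4 called members in each pig (points, sorted within a group) of groups CON, IM5 and IM10, with the mean ± SD as a bar beside the points. For TRIM31 the called probe set is shown. The vertical axes differ between panels and do not start at 0. In each panel the points of the groups overlap, and the 3.01 of TRIM50 in group CON lies far below the rest.

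No TRIM gene that acts in striated muscle was called in any comparison. TRIM72 (MG53), which patches tears of the fibre membrane, had means of 8.23, 8.23 and 8.21 in groups CON, IM5 and IM10, with intervals of -0.30 to 0.24 for group IM10 against group CON and -0.27 to 0.27 for group IM5 against group CON. TRIM55 (MuRF2), a sarcomeric relative of TRIM63, had means of 7.16, 7.21 and 7.12, with an interval of -0.28 to 0.19 for group IM10 against group CON. TRIM32, whose mutation causes a limb-girdle muscular dystrophy in humans, had means of 4.67, 4.52 and 4.59 and an interval of -0.27 to 0.12. Each of these intervals extends just past a fold change of 1.2 on the lower side, and none reaches 1.5. Between groups IM5 and CON, the intervals of the 3 genes reached from -0.34 to 0.28, so past 1.2 on both sides but within 1.5. TRIM32 had the largest difference there, at -0.15. TRIM54 was not analysed here.

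Beside TRIM31, a list of 10 TRIM genes with antiviral roles was drawn up, of which TRIM14, TRIM21 and TRIM26 were measured under a single name, and none of these 3 was called. TRIM21, a receptor for antibody inside the cell, had means of 4.54, 4.63 and 4.64. TRIM14, an adaptor of MAVS signalling, had means of 4.75, 4.67 and 4.85, and TRIM26, a ligase that acts on the interferon factor IRF3, had means of 4.98, 4.92 and 4.88. Their differences between groups IM10 and CON were 0.10 for TRIM21, 0.11 for TRIM14 and -0.10 for TRIM26, and without IM10 replicate 2, which held the highest TRIM14 value of all pigs (5.23), they were 0.06, 0.03 and -0.06. Interferon-stimulated genes, measured for 20 of 30 listed genes in 21 probe sets, held no called gene in any comparison, and against group CON their median difference was -0.05 for group IM10 and -0.06 for group IM5. Across the 18 pigs, after removal of the group means, TRIM21 and TRIM14 correlated with the mean of these genes at r = 0.49 and 0.47 (rho 0.36 and 0.45). Neither passed the permutation test within groups (100000 resamples, two-sided, adjusted p = 0.117 for both r, 0.325 and 0.175 for rho, over 9 relations). For TRIM26 r was 0.13 (rho 0.12, permutation adjusted p = 0.638 and 0.673). Without IM5 replicate 5 and IM10 replicate 1, the 2 pigs farthest from the median of the list, r was 0.44 for TRIM21, 0.25 for TRIM14 and 0.09 for TRIM26. Without IM10 replicate 2 alone, r was 0.53 for TRIM21, 0.59 for TRIM14 and 0.10 for TRIM26 (permutation adjusted p = 0.0928, 0.0567 and 0.713).

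Several of the TRIM genes, TRIM31, TRIM40, TRIM10, TRIM15, TRIM26 and TRIM39, lie close together in the pig reference annotation, the first 4 with no other gene between them. Their differences had both signs. Between groups IM10 and CON, TRIM10 differed by 0.20 (standard error 0.098), TRIM40 by -0.12 (standard error 0.12), TRIM15 by 0.03 and TRIM26 by -0.10, and none of these 4 was called in any comparison. TRIM10, known from red cell development, had its highest value, 4.00, in IM10 replicate 5 and was otherwise between 3.29 and 3.75. FBXO2, FBXO44 and FBXO6 are direct neighbours too, with differences between groups IM10 and CON of 0.14, -0.07 and 0.05.

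Of the remaining TRIM genes, TRIM45 and TRIM17 reached an unadjusted P under 0.05 without passing the threshold on fold change. TRIM45 ranged from 5.64 to 5.97 in group CON and from 5.91 to 6.24 in group IM5, a difference of 0.23 (standard error 0.10, limma adjusted p = 0.998), and 4 of 6 pigs of group IM5 lay above every pig of group CON. TRIM17 ranged from 4.65 to 5.21 in group IM5 and from 4.99 to 5.36 in group IM10, a difference of 0.25 (standard error 0.11, limma adjusted p = 0.931). Leaving out single pigs brought TRIM17 past both thresholds in this comparison without IM5 replicates 1 or 2 or IM10 replicates 4 or 5 (0.27 to 0.30), and in group IM5 against group CON without CON replicates 2 or 6 or IM5 replicate 2 (-0.28 to -0.26). TRIM45 passed without IM5 replicate 5, at 0.26.

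Among the ubiquitin-conjugating enzymes, 11 probe sets had a higher and 11 a lower mean when group IM10 was set against group CON, and none rose or fell in any comparison. The 2 closest to a call were both highest in group IM5. UBE2H, the E2 of the CTLH ligase complex, ranged from 6.57 to 6.98 in group CON, from 6.86 to 7.32 in group IM5 and from 6.79 to 7.09 in group IM10. All 6 pigs of group IM5 lay above the mean of group CON, 6.80 ± 0.17 (SD, n = 6). The difference was 0.21 (standard error 0.092, limma adjusted p = 0.998) in group IM5 and 0.18 (standard error 0.092, limma adjusted p = 0.991) in group IM10, both against group CON, and neither reached a fold change of 1.2.

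UBE2D1 belongs to the UBE2D enzymes, near-identical E2s that serve a wide range of ligases and whose probes may share signal. Its values ran from 9.30 to 9.75 in group CON, from 9.55 to 10.02 in group IM5 and from 9.26 to 10.00 in group IM10. In group IM5, 5 of 6 pigs lay above every pig of group CON, and the difference was 0.25 (standard error 0.12, limma adjusted p = 0.998), which is 1.19-fold. It passed the thresholds in 5 of the alternatives, with array weights and without any single one of CON replicates 1, 2 and 3 and IM5 replicate 5, with differences of 0.28 to 0.31. The other members of this subfamily did not reach an unadjusted P under 0.05 in any comparison. UBE2D2 had means of 8.63, 8.71 and 8.69, UBE2D3 had means of 9.39, 9.40 and 9.43, and UBE2E3, a relative, had means of 6.31, 6.28 and 6.35. UBE2D4 had means of 9.91, 9.90 and 9.72, a difference of -0.19 (standard error 0.11) between groups IM10 and CON.

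E2s with more specialised tasks had differences of at most 0.17 in size in the comparisons given here. UBE2G1, which extends chains on targets of cullin ligases, had means of 9.65, 9.79 and 9.63 and the lowest P of the family between groups IM10 and IM5, with a difference of -0.17 (standard error 0.098). UBE2N, which builds the lysine-63 chains of signalling, differed by -0.06 (standard error 0.082) between groups IM10 and CON, and UBE2L3, which serves Parkin and the linear-chain ligase, by -0.11 (standard error 0.086). UBE2R2 and UBE2K, which build the lysine-48 chains that lead to the proteasome, differed by -0.10 and 0.10. UBE2J2, an E2 of the endoplasmic reticulum, differed by -0.05, and UBE2W, which modifies the ends of proteins, by 0.11.

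**Figure D3:**
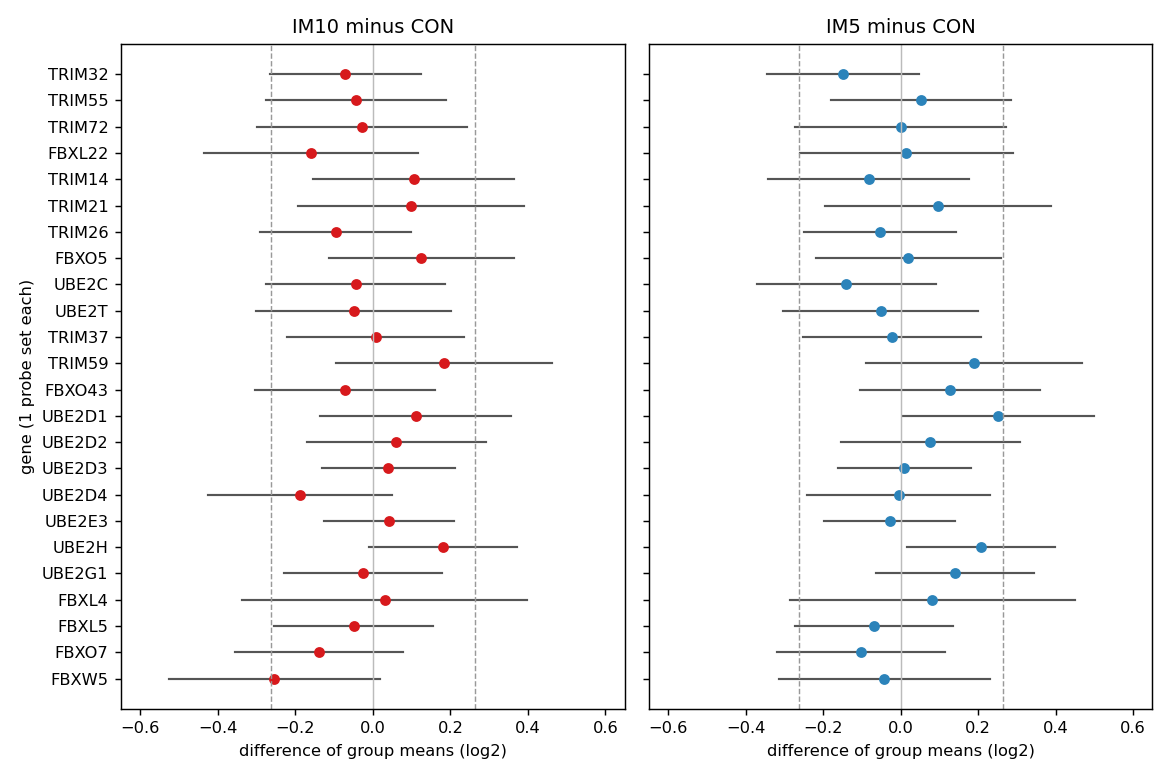
Difference of group means (log2, horizontal axis) with its 95% confidence interval from limma for 24 members grouped by role, from muscle genes at the top over antiviral and cell-cycle genes to E2s and other F-box genes. The left panel shows group IM10 minus group CON and the right panel group IM5 minus group CON, and dashed lines mark a fold change of 1.2. Every interval of the left panel includes 0, and in the right panel those of UBE2D1 and UBE2H lie just above 0.

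No member listed for the cell cycle was called in any comparison, and FBXO5 and UBE2C varied with other cell proliferation genes from pig to pig. FBXO5 (EMI1) inhibits the anaphase-promoting complex, UBE2C is the E2 of that complex and UBE2T the E2 of the Fanconi anaemia repair pathway. FBXO5 ranged from 4.16 to 4.52 in group CON, from 4.20 to 4.66 in group IM5 and from 4.25 to 5.02 in group IM10. UBE2C ranged from 5.18 to 5.65, from 5.14 to 5.45 and from 5.02 to 5.74, and UBE2T from 4.62 to 4.97, from 4.66 to 4.95 and from 4.25 to 5.22. For each of these 3 genes the highest value of all pigs was that of IM10 replicate 2, the pig with the high macrophage and proliferation markers. The difference of FBXO5 between groups IM10 and CON was 0.13 (standard error 0.11), and 0.02 without that pig. For UBE2C it was -0.05 with the pig and -0.12 without it, and for UBE2T it was -0.05 and -0.14.

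The deviations of FBXO5 from its group means correlated across the 18 pigs with the mean deviation of the cell proliferation genes at r = 0.85 (rho 0.68), and those of UBE2C at r = 0.77 (rho 0.66). In the permutation test within groups (100000 resamples, two-sided, adjusted over 9 relations) the adjusted p was 0.00378 for r and 0.0385 for rho in FBXO5, and 0.00607 and 0.0385 in UBE2C. Without IM10 replicates 2 and 5, the 2 pigs farthest from the median of the list, r was 0.68 for FBXO5 (permutation adjusted p = 0.0483; rho 0.54, 0.113) and 0.54 for UBE2C (0.116; rho 0.57, 0.113), so the relation of UBE2C did not hold without them, and that of FBXO5 held for r but not for rho. Without IM10 replicate 2 alone, r was 0.71 for FBXO5 (permutation adjusted p = 0.0352) and 0.65 for UBE2C (0.0401). UBE2T had r = 0.63 but rho = 0.23 (permutation adjusted p = 0.108 and 0.461), and r was 0.04 without the 2 farthest pigs and 0.37 without IM10 replicate 2 alone, so its relation rests on these pigs.

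TRIM59, a membrane TRIM protein linked to proliferation, gave r = 0.45 (rho 0.51, permutation adjusted p = 0.108 and 0.107), and r = 0.55 (0.0683) without IM10 replicate 2 alone. Without the same 2 farthest pigs, its r was 0.75 (permutation adjusted p = 0.0358) and its rho 0.60 (0.113), so it passed for r but not for rho. TRIM37, which limits the assembly of centrosomes, gave r = 0.21 (rho 0.30, permutation adjusted p = 0.508 and 0.377), and r = 0.53 without these pigs. Without IM10 replicate 2 alone, TRIM37 gave r = 0.59 and rho = 0.70 (permutation adjusted p = 0.0567 and 0.0365), so that its rho passed the threshold only when this pig alone was left out. FBXO43 (EMI2), known from the egg cell and among the dimmest probe sets here, gave r = -0.24 (rho -0.24, permutation adjusted p = 0.463 and 0.446), and r = -0.17 without them. The part of cell composition in these relations was not tested.

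**Figure D4:**
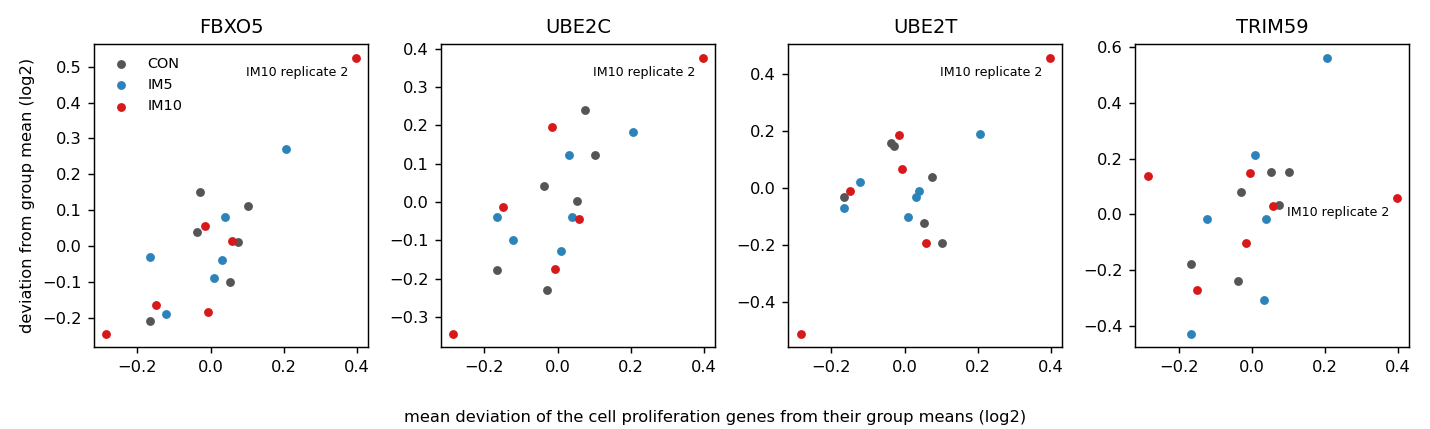
Deviation of FBXO5, UBE2C, UBE2T and TRIM59 from the mean of the pig's own group (log2, vertical axis) against the mean deviation of 13 probe sets of cell proliferation genes (log2, horizontal axis), with 1 point per pig coloured by group. IM10 replicate 2 lies at the far right of each panel. Correlations over all 18 pigs were 0.85, 0.77, 0.63 and 0.45.

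Of the member names, 10 stood on 2 probe sets each. The gene ID was the same for both in 8 of them, while the UBE2O probe sets carry none and the TRIM31 probe sets carry different IDs, so that for TRIM31 the comparison need not be within 1 gene. The probe sets of FBXL19, FBXL7 and FBXO2 held the same value in all 18 pigs, so the 107 probe sets stand for 104 distinct measurements. After removal of the group means, the probe sets of UBE2O followed each other closely (r = 0.99, rho 0.99), and so did those of FBXL20 (r = 0.88, rho 0.89), with a permutation adjusted p of 2e-05 for r in both, the smallest that 100000 resamples over 10 relations gave here. FBXL17 gave r = 0.60 (rho 0.67, permutation adjusted p = 0.0401 and 0.016) and TRIM31 gave r = 0.42 (rho 0.59, permutation adjusted p = 0.159 and 0.0222). The adjustment runs over all 10 names, including FBXL19, FBXL7 and FBXO2, whose result was fixed by their identical values. This can lower the adjusted p of the other pairs. For FBXL17 the unadjusted permutation p was 0.024 for r and 0.0096 for rho, and no pass after adjustment is claimed for its r. For UBE2J1, FBXO33 and TRIM39, r was 0.07, -0.16 and -0.27 (rho 0.01, -0.13 and -0.18), with permutation adjusted p of 0.824, 0.618 and 0.371 for r and 0.969, 0.686 and 0.61 for rho. Without the 2 pigs farthest from the median of the first probe set, r was 0.98 for UBE2O, 0.86 for FBXL20, 0.48 for FBXL17, 0.48 for TRIM31, -0.05 for UBE2J1, -0.15 for FBXO33 and -0.12 for TRIM39. The FBXO33 probe sets differed in sign between groups IM10 and CON, at -0.13 and 0.18, and so did those of TRIM39, at -0.12 and 0.08.

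Variation between pigs of the same group was moderate. The pooled SD within groups ran from 0.087 to 0.34 with a median of 0.183 among the members, against a median of 0.192 among all probe sets. After FBXL4, the most variable were FBXO41 (0.31), TRIM42 (0.31), FBXO36 (0.28) and TRIM50 (0.28). FBXO41 ran from 4.04 to 5.02 in group CON, from 4.00 to 4.73 in group IM5 and from 3.96 to 4.75 in group IM10. TRIM42, FBXO36 and TRIM50 were among the 14 members in the dimmest 30% of probe sets, and 93 members lay above that level.

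Few other genes of the ubiquitin relay were called. Of 35 probe sets for 31 genes of ubiquitin activation and of the cullin ligases, 0 were called in group IM10 against group CON by limma. The shares among all probe sets were 1.12% higher and 1.17% lower. An unadjusted P under 0.05 in limma was reached by 2 of the 35, against 4.38% of all. In group IM5 compared with group CON, 1 rose, the ubiquitin precursor gene UBB, from 10.35 ± 0.27 (SD, n = 6) to 10.69 ± 0.19, a difference of 0.33 (standard error 0.12, limma adjusted p = 0.998). In group IM10 compared with group IM5, 1 rose, the cullin CUL7 that holds FBXW8, from 4.42 ± 0.19 to 4.71 ± 0.28, a difference of 0.29 (standard error 0.13, limma adjusted p = 0.931). Among all probe sets 1.09% rose in group IM5 against group CON and 1.43% in group IM10 against group IM5. Of the atrophy genes left out by name, FBXO32 (atrogin-1) had differences of 1.00 (standard error 0.22, limma adjusted p = 0.998) between groups IM5 and CON and -0.68 between groups IM10 and IM5, and UBE2B differed by 0.33 (standard error 0.11, limma adjusted p = 0.991) between groups IM10 and CON and by 0.29 between groups IM10 and IM5, each past the thresholds. FBXO21 was also past them between groups IM5 and CON, at 0.28 (standard error 0.099, limma adjusted p = 0.998). Thus 2 of the 5 measured atrophy genes rose in group IM5 against group CON, against 1.09% of all probe sets. Between groups IM10 and CON, 1 of the 5 rose, against 1.12% of all, and 1 had a lower mean, by -0.28. Whether these 5 genes differ from the background was not tested.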

How the data were processed

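Total RNA of gastrocnemius muscle was hybridised to Affymetrix Porcine Gene 1.0 ST arrays. The deposited values are log2 expression values that the authors made with RMA in Affymetrix Expression Console, to 2 decimals, for 25388 probe sets. They were taken as they are. Precision is limited by the number of arrays, and neither labels nor files name a batch.

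Names were read from GEO's platform annotation, where 13327 probe sets carried 1 name, 357 several and 11704 none. Of the members, 103 had 1 gene ID and 98 of these were found in the RefSeq table of assembly Sscrofa11.1, with no change of symbol. The table was used for names and neighbouring genes only. Another 3 probe sets of these families carry several names and were left out.

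Group means of all 18 arrays were fitted together with limma 3.58.1 under R 4.3.3, checked on simulated data, with Benjamini-Hochberg adjustment over all probe sets. The members and gene lists were chosen with earlier results of these data known. Named were the called members, the lowest P of each family in each comparison, the 5 largest SDs, FBXW8, and lists of muscle, antiviral, cell-cycle, UBE2D and UBE2E, and metabolic members. Names with an unadjusted P under 0.05, probe set pairs and neighbouring genes, and the other E2s, were added after the values were seen. Correlations used Python 3.11.15 with numpy 2.4.6 and scipy 1.17.1, pandas 2.3.3 for tables and matplotlib 3.10.9 for plots. Alternatives were the methods' t-test, a block for the replicate number, omission of the dimmest 30%, median centring, quantile normalization, array weights, 1 value per gene name and leaving out each pig in turn. Leaving out a pig cannot move the difference between the groups it does not belong to, and alters only the P through the shared spread.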

Additional observations from a re-analysis of the deposited data

Results flagged for a closer look

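A pig whose value was far from the other 5 of its group was found in 7 of 120 groups of named members, against 6 groups expected by chance. In group CON these were FBXW2 in replicate 1, at 6.47 with the next value at 6.28, FBXW8 in replicate 1, at 5.89 with the next at 5.63, and UBE2D2 in replicate 2, at 9.03 with the next at 8.65. In group IM5 they were UBE2D2 in replicate 6, at 8.32 with the next at 8.68, and UBE2H in replicate 6, at 7.32 with the next at 6.99. In group IM10 they were TRIM31 in replicate 6, at 5.17 with the next at 4.73, and UBE2H in replicate 5, at 6.79 with the next at 6.98. Without the high pig, the mean of group CON was 5.59 for FBXW8 and the mean of group IM5 was 6.95 for UBE2H.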

How the results depend on the processing

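In group IM10 against group CON, 2 members were called. The count was 1 with the methods' t-test, 1 with the replicate block (TRIM50 was lost), 1 without the dimmest 30% of probe sets, 1 with median centring and 0 with array weights (2 with quantile normalization or 1 value per gene name), and 0 to 2 when each pig was left out. In group IM5 against group CON, 2 were called, with 0 by the t-test, 1 without the dimmest 30%, 1 with 1 value per gene name, 2 under the other settings and 0 to 4 when each pig was left out. In group IM10 against group IM5, 1 was called, with 0 without the dimmest 30%, 0 with array weights, 1 under the other settings and 0 to 3 when each pig was left out. Same-numbered pigs of different groups deviated together at a mean r of 0.073 (-0.122 to 0.305 over 18 pairs). For pigs with other numbers the mean r was -0.015 (-0.271 to 0.236 over 90 pairs). Whether the numbers stand for a shared factor was not tested, and the replicate block is only an alternative. Over the 40 named probe sets, 2919 of 2982 values kept their call or lack of one and 50 lost a call. Another 13 gained one (UBE2D1 5, FBXL18 3, FBXW5 3, TRIM59 1 and UBE2D4 1), 0 reversed, and 164 changed sign without a call. Most of these values had no call to lose. The called results lost theirs in 13 of 25 alternatives for FBXW8, 9 of 25 for TRIM31 and 13 of 24 for TRIM50. For TRIM69 the rise was lost in 8 of 24 and the fall in 7 of 24. Without the 2 farthest pigs, r with the proliferation genes was 0.54 for UBE2C, past the threshold no more, and 0.75 for TRIM59, now past it, though its rho was not. The correlations without IM10 replicate 2 alone were chosen after seeing the data. With median centring r was 0.85 for FBXO5 and 0.76 for UBE2C, while the rho of UBE2C, 0.63, no longer passed (permutation adjusted p = 0.0592). Over all 107 members 23 calls were gained, the other ones being TRIM17 with 7, FBXO31 with 2 and TRIM45 with 1. The cause of these shifts was not tested.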
